A study of Drosophila melanogaster with 12 samples.

Results

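The genes described here are the cytosolic ribosomal protein genes of Drosophila melanogaster, taken as every RefSeq protein-coding gene whose symbol starts with RpL or RpS. On the 6 chromosome arms this gave 92 genes of 13922, of which 54 had RpL symbols (large subunit) and 38 had RpS symbols (small subunit). The rule also takes in -like genes, of which RpL24-like and RpLP0-like are related to assembly factors of yeast. They lay on 3R (23 genes), 2R (21), 2L (19), X (14), 3L (14) and 4 (1). The choice used symbols and no measured value. A gene counted as called when the summit of a deposited peak lay within 500 bp of either annotated end of the gene. The gene table gives no strand, so the transcription start was not told apart from the 3' end. The genes are short, with a median length of 1315 bp against 2163 bp over all protein-coding genes, and at 25 of the 92 the window covered the whole gene.

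Each ribosomal protein is made in an amount matched to that of its partners, and its messenger RNA is among the most abundant of a growing cell. Many of these promoters in flies start transcription at a pyrimidine-rich initiator rather than at a TATA box. Loss of 1 copy of many of these genes gives the Minute phenotype, with slow development and thin bristles. CP190 is a zinc-finger and BTB-domain cofactor that joins the DNA-binding proteins of insulators and is found at many active promoters. CLAMP is a zinc-finger protein that recognises GA repeats and is also known from the recruitment of the male dosage compensation complex.

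Binding was measured by chromatin immunoprecipitation and sequencing in Kc167 cells, an embryo-derived line that the labels give as female. Knockdown cells (dsCP190) received 12 µg of double-stranded RNA against CP190 by nucleofection, and mock cells went through the same procedure without RNA. Both were then cultured for 6 days. From each treatment, chromatin was precipitated with 5 µg of rabbit antibody against CP190 or of rabbit antibody against CLAMP, in 2 replicates each. Of the 12 samples, 8 had a peak list of this kind and the 4 inputs were left out. The labels and the title name CP190 as the target of the knockdown, and they were followed although the series' design text names CLAMP. No RNA or protein level was used here, so neither the degree of knockdown nor the cell type was checked. In dsCP190 cells the CP190 antibody was directed at the targeted protein itself.

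The CP190 lists held 2047 and 3138 peaks in dsCP190 cells and 7669 and 7964 in mock cells. The CLAMP lists held 2468 and 901 peaks in dsCP190 cells and 4471 and 4514 in mock cells. Read totals were not used here. The local background at shared summits was recovered from the deposited values as a measure of relative depth. It was lower in the dsCP190 libraries, at 0.523 to 0.896 of that of a mock library for CP190 and 0.354 to 0.446 for CLAMP. For CP190, dsCP190 replicate 1 stood at 0.896 and 0.654 of mock replicates 1 and 2, and replicate 2 at 0.715 and 0.523. Of the CP190 dsCP190 libraries, replicate 2 thus had the lower background but the longer list. A gene without a call is therefore a gene below the calling threshold at that depth, and not one shown to be free of the protein.

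CP190 was called at most ribosomal protein genes in mock cells, and at fewer in both dsCP190 libraries. It was called at 45 (48.9%) and 63 (68.5%) of the 92 genes in dsCP190 replicates 1 and 2, against 76 (82.6%) and 81 (88.0%) in mock replicates 1 and 2. The background over all 13922 genes, which include the 92, was 13.9% and 23.3% in the dsCP190 libraries and 48.5% and 49.7% in the mock libraries. The dsCP190 and mock counts did not overlap. Mean counts were 54 ± 12.7 genes in dsCP190 cells and 78.5 ± 3.54 in mock cells (SD, n = 2 each), a difference of -24.5 genes and a ratio of 0.688. The exact permutation test (two-sided) returned p = 0.333. With 2 libraries against 2 no smaller p can be had, so the difference cannot pass a threshold in this design. The labels do not say that replicates were separate cultures, so the spread between them may be technical.

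The direction of this count changed when the lists were held to equal length. Such a cut removes any difference between the treatments in the total number of peaks. It can thus show only how the 92 genes rank within each list. Each CP190 list was held to its 2047 peaks of highest −log10 q, and not of highest fold. The calls were then 45 and 52 ribosomal protein genes in dsCP190 cells and 41 and 43 in mock cells. This was a difference of 6.5 genes in the other direction. All genes then had 13.9% and 15.4% called in the dsCP190 libraries and 14.3% and 14.3% in the mock libraries. At equal length the dsCP190 counts were thus the higher ones for the 92 genes, and again the treatments did not overlap.

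**Figure D1:**
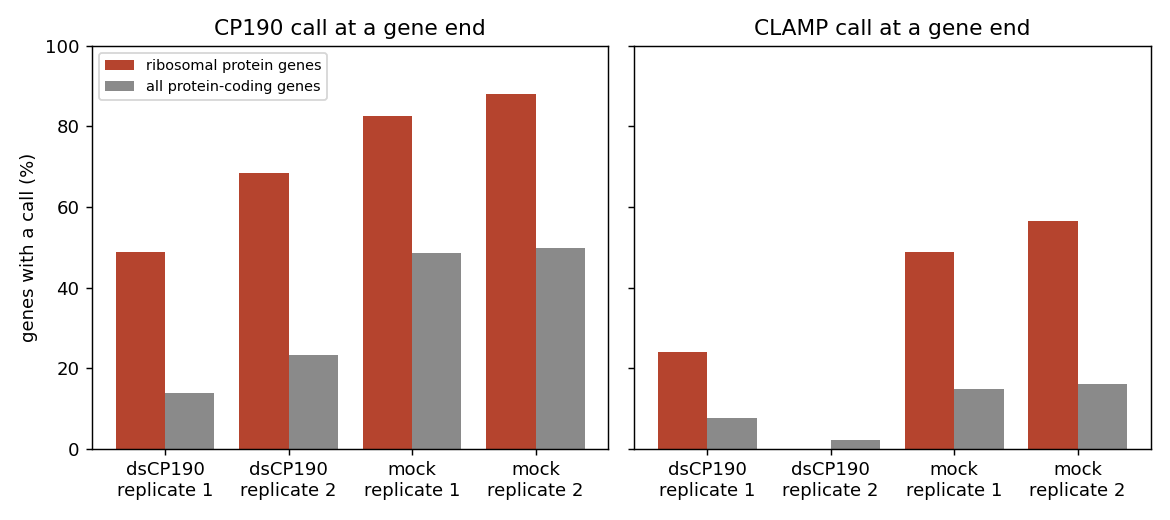
Percent of genes with a CP190 call (left) or a CLAMP call (right) within 500 bp of a gene end, in each library, for the 92 ribosomal protein genes (red bars) and for all 13922 protein-coding genes (grey bars). CP190 was called at 48.9% and 68.5% of ribosomal protein genes in dsCP190 cells and at 82.6% and 88.0% in mock cells, and the CLAMP bar of dsCP190 replicate 2 stands at 0.

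Of the 92 genes, 76 (82.6%) had CP190 in both mock libraries, against 47.4% of all genes. These comprised 44 of the 54 RpL genes and 32 of the 38 RpS genes, so both subunits were covered. Of the 76, 44 (57.9%) kept their call in both dsCP190 libraries, against 25.9% of all genes with CP190 in both mock libraries. Another 16 (21.1%) were called in dsCP190 replicate 2 but not in replicate 1, against 21.3% of all genes. None was called in dsCP190 replicate 1 alone, against 1.74% of all genes. The last 16 (21.1%) were called in neither dsCP190 library and are termed lost, against 51.1% of all genes. With lists of equal length, 40 genes had CP190 in both mock libraries, of which 35 kept it and 0 lost it, so the lost count depends on list length. At that length only the mock peaks of highest −log10 q remain. Where every peak had to reach a −log10 q of 10, 26 of 70 kept it and 20 lost it. The kept and lost shares of all genes were not counted at these settings, so the members cannot be set beside them there. Among RpL genes 25 were kept and 11 were lost, and among RpS genes 19 were kept and 5 were lost. The difference between the subunits was not tested.

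The fold enrichment given below is the authors' value of the strongest peak at a gene, over its local background, and differences in it between libraries were not tested. The kept genes named next had the highest mean ranks in the mock lists and encode proteins of both subunits. RpL7A, on X from 6530897 to 6533348, had CP190 fold enrichments of 11.3 and 15.2 in dsCP190 replicates 1 and 2, against 34.9 and 28.3 in mock replicates 1 and 2. Both dsCP190 values of this gene lay below both mock values. RpS14a, a copy of a duplicated pair on X, had 10.5 and 14.0 in dsCP190 cells, against 35.6 and 27.1 in mock cells. RpL37A, on 2L from 5070957 to 5072055, had 7.79 and 10.0 in dsCP190 cells, against 28.2 and 39.0 in mock cells. Both dsCP190 values were again below both mock values at these genes. RpS28a, on 3R and with 304 bp the shortest of the 92 genes, had 15.7 and 22.4 in dsCP190 cells, against 35.0 and 26.1 in mock cells. RpS21, known in flies as a gene whose partial loss causes overgrowth of larval tissues, had 5.59 and 11.4 in dsCP190 cells, against 27.4 and 34.8 in mock cells. Here too the treatments did not overlap.

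A kept call did not mean an equal peak. Over the 44 kept genes the median CP190 fold was 4.32 in dsCP190 replicate 1 and 8.72 in replicate 2, against 20.8 and 18.5 in mock replicates 1 and 2. Both dsCP190 values lay below both mock values at 41 of the 44 genes (93.2%), against 93.6% of all kept genes, so the ribosomal protein genes did as the kept genes at large. RpL17 and RpL23A were among the exceptions and were named after their values were seen. At RpL17 the strongest mock replicate 1 peak lay at the other end of the gene from those of the 3 other libraries. At RpL23A, a large-subunit protein at the mouth of the exit tunnel, the folds were 9.38 and 25.4 in dsCP190 cells, against 33.0 and 23.5 in mock cells. Here only dsCP190 replicate 2 reached the level of a mock library. Replicate 2 had the higher fold of the dsCP190 libraries at 42 of the 44 kept genes, and also the longer list of peaks.

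At 16 genes the call was absent from dsCP190 replicate 1 alone, and the 4 strongest of these had strong mock peaks. RpS23, whose product helps the ribosome to read codons accurately, had a fold of 7.24 in dsCP190 replicate 2, against 20.7 and 19.5 in mock cells. Its dsCP190 replicate 1 summit, of fold 4.18, lay at 503 bp, just outside the window, against 488 bp in dsCP190 replicate 2. The missing call thus rested on the window edge. RpL27A, of the same class, had a dsCP190 replicate 1 summit of fold 3.15 at 553 bp. RpS10b had 4.31 in dsCP190 replicate 2, against 19.4 and 20.4 in mock cells. RpS2 had 4.55 in dsCP190 replicate 2, against 18.2 and 21.6 in mock cells. At these genes the value of dsCP190 replicate 2 was below both mock values, as it was at RpS7, with 6.17 in dsCP190 replicate 2 against 17.7 and 17.0 in mock cells. The median mock folds of the 16 genes of this class were 11.4 and 11.7. The class includes RpL32, the rp49 gene widely used as a reference transcript in flies, with 2.64 in dsCP190 replicate 2 against 11.0 and 10.3 in mock cells.

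The 16 lost genes had weaker mock peaks than the kept genes at the median, with folds of 5.95 and 5.53 in mock replicates 1 and 2, against 20.8 and 18.5. Their ranges of 2.37 to 11.5 and 2.25 to 12.9 were wide, so not every lost gene had a weak peak. The strongest was RpL24-like, related to a yeast factor of ribosome assembly, with no call in dsCP190 cells and mock folds of 11.5 and 12.9. RpL18 had no call in dsCP190 cells and mock folds of 10.9 and 8.76, and RpS12, which is needed in flies for Minute cells to be outcompeted, had no call and mock folds of 9.67 and 7.41. None of these genes had a CP190 peak at either end in a dsCP190 library. RpL34a (8.77 and 7.51 in mock cells), RpL9 (7.56 and 8.26) and RpL13 (7.04 and 8.35) followed, likewise with no call in dsCP190 cells. Both genes that encode a ribosomal protein fused to ubiquitin were lost, RpL40 with mock folds of 3.40 and 2.84 and RpS27A with 3.49 and 3.90. RpL40 and RpS27A fall outside the naming rule and were chosen after their values were seen. Without dsCP190 replicate 2, the lost count would be 32, because a gene then needs to lack a call in 1 library only.

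**Figure D2:**
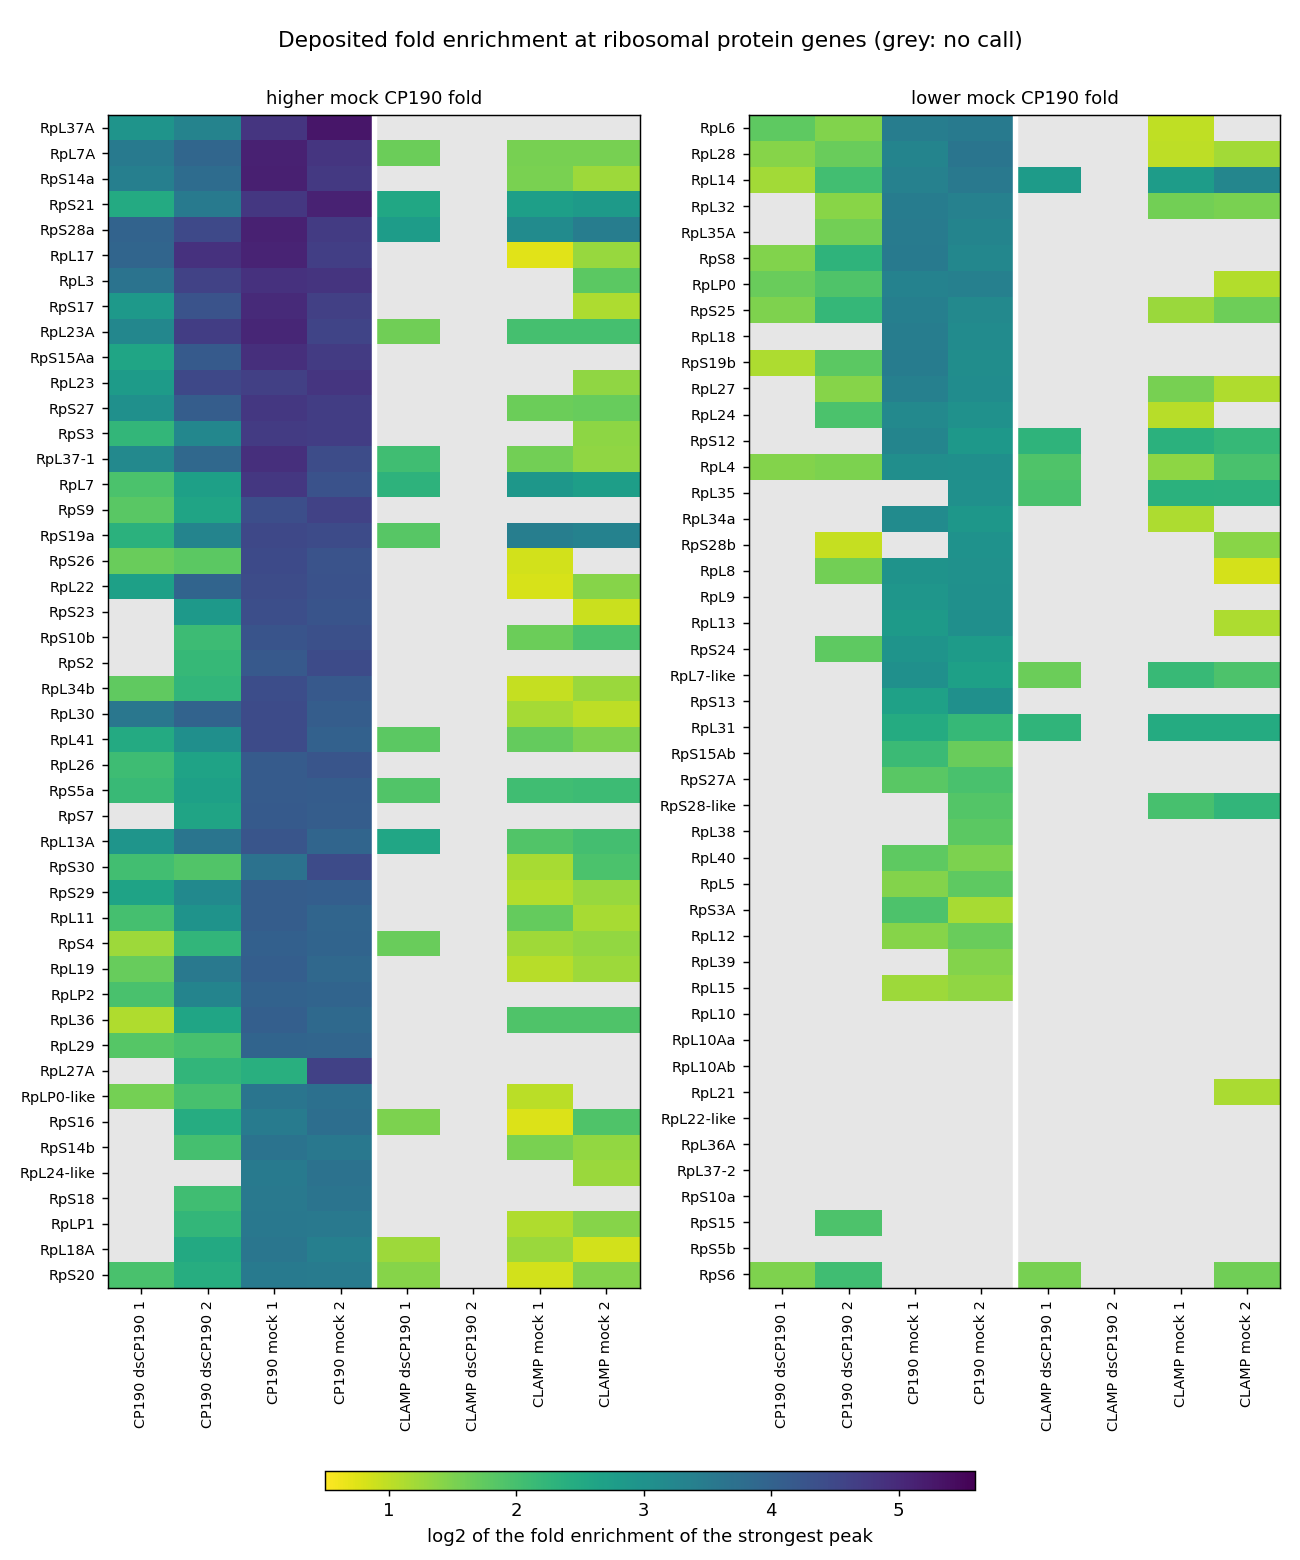
Log2 of the authors' fold enrichment of the strongest CP190 peak (left of the white line) and CLAMP peak (right of it) at 91 ribosomal protein genes, 1 line per gene and 1 column per library, ordered from the highest to the lowest mean mock CP190 fold, with grey for no call. The grey cells of the CP190 dsCP190 columns gather at genes of lower mock fold, and the column of CLAMP dsCP190 replicate 2 is grey throughout.

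Whether a call was kept followed the strength of the mock peak. Each gene with CP190 in both mock libraries was given the mean of its percentile ranks by fold in the mock lists. The median rank was 84.6 for the kept ribosomal protein genes, 67.2 for those called in dsCP190 replicate 2 only and 37.6 for those lost. Ribosomal protein genes were strong sites as a group, with a median rank of 74.4 against 54.8 for all genes, and median mock folds of 12.6 and 14.6 against 8.85 and 8.68. Of the 76, 31 (40.8%) lay in the strongest of 5 equal classes of all genes.

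The called shares were also set beside those of all genes within classes of like mock strength, and were higher for the ribosomal protein genes in the 3 strongest classes of both dsCP190 libraries. In the strongest class 87.1% and 100% of the 31 ribosomal protein genes were called in dsCP190 replicates 1 and 2, against 80.5% and 93.3% of all genes. In the fourth class these shares were 60.0% and 95.0% of 20 genes, against 41.6% and 82.7% of all genes. In the middle class they were 35.7% and 64.3% of 14 genes, against 10.7% and 45.3% of all genes. The weakest class held 8 ribosomal protein genes, none of them called in either dsCP190 library, against 1.36% and 2.27% of all genes. The class above it held 3, of which 1 (33.3%) was called in dsCP190 replicate 2, against 11.9% of all genes, and none in replicate 1, against 3.71%. The order is a description of these libraries: genes of 1 library are not replicates, the classes hold few ribosomal protein genes, and no test was made.

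**Figure D3:**
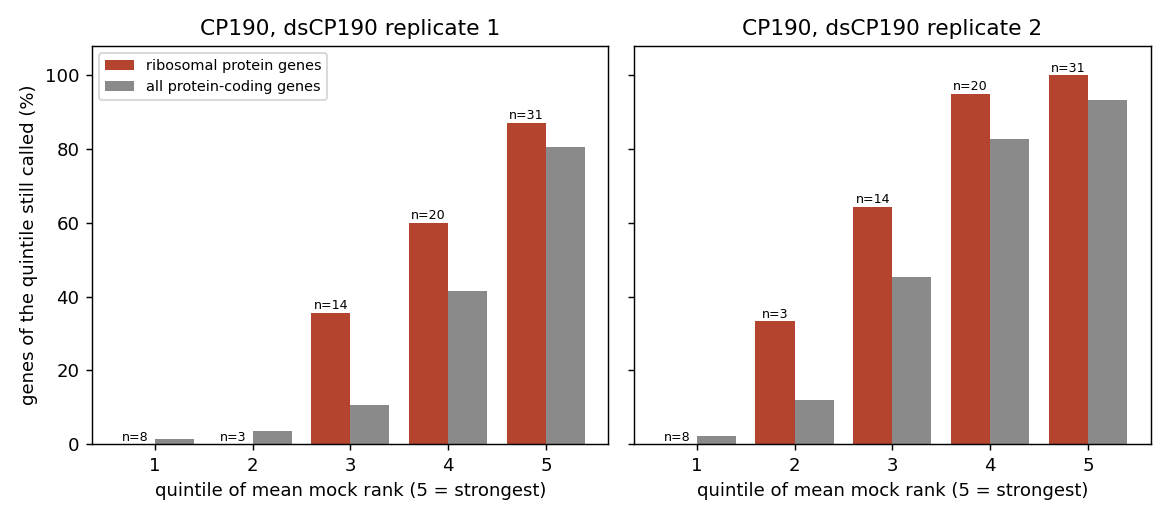
Percent of genes with CP190 in both mock libraries that were still called in dsCP190 replicate 1 (left) and replicate 2 (right), by quintile of mean mock rank, for ribosomal protein genes (red bars, with their number n) and all protein-coding genes (grey bars). In the middle quintile 35.7% and 64.3% of 14 ribosomal protein genes were called, against 10.7% and 45.3% of all genes.

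A CP190 call seen in each dsCP190 library and in no mock library was found at 1 ribosomal protein gene (1.09%, against 0.187% of all genes). This was RpS6, the target of S6 kinase, on X from 7899624 to 7901331. Its dsCP190 summits lay 23 and 64 bp from the gene end, with folds of 2.79 and 4.20. Its nearest mock summits lay 538 and 512 bp away, just outside the window, in stronger peaks with a fold of 14.6 in both libraries that reached over the gene, so the mock cells did have a CP190 peak there. RpS15 was alike in 1 library, with a summit at 9 bp and a fold of 3.77 in dsCP190 replicate 2, against mock summits at 675 and 663 bp with folds of 23.7 and 21.2.

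The other 9 genes without a mock CP190 call had none in any library, and the share of such genes over all genes is not given here. RpL36A stood at the edge of the window, with mock summits at 545 and 521 bp and folds of 15.5 and 16.0, and RpL10Ab had mock summits at 551 and 582 bp. At both genes a CP190 peak reached over the gene in both mock libraries. RpS10a had strong neighbouring peaks at 853 and 850 bp. The nearest mock replicate 1 summits of RpL10, RpL10Aa, RpL21, RpL22-like, RpL37-2 and RpS5b lay 17127, 6682, 7209, 7020, 2839 and 2116 bp away. RpS5b, RpL22-like and RpS10a are copies known in flies mainly from the gonads. Just inside the window stood RpL8, with mock summits at 497 and 467 bp, and RpS19a, at 430 and 442 bp. The 5 genes called in 1 mock library only were RpL35, RpL38, RpL39, RpS28-like and RpS28b, all in mock replicate 2, which had the longer list. At RpL35 and RpS28b a mock replicate 1 peak also reached over the gene, with folds of 9.68 and 8.88. Its summit lay outside the window, at 557 and 703 bp.

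CLAMP was called at fewer ribosomal protein genes than CP190, and its dsCP190 replicates went apart. It was called at 22 (23.9%) of the 92 genes in dsCP190 replicate 1 and at 0 in dsCP190 replicate 2, against 45 (48.9%) and 52 (56.5%) in mock replicates 1 and 2. The background over all genes was 7.64% and 2.21% in the dsCP190 libraries and 14.9% and 16.0% in the mock libraries. In dsCP190 replicate 2, with a list of 901 peaks, the 0 calls at ribosomal protein genes were near the 2.21% of all genes. Mean counts were 11 ± 15.6 genes in dsCP190 cells and 48.5 ± 4.95 in mock cells (SD, n = 2 each), a difference of -37.5 and a ratio of 0.227. The counts did not overlap, and p was again at its minimum of 0.333 (exact permutation test, two-sided). Each CLAMP list was also held to its 901 peaks of highest −log10 q. Only 2 and 0 ribosomal protein genes were then called in dsCP190 cells, and 2 and 3 in mock cells. All genes had 2.61% and 2.21% called in the dsCP190 libraries and 2.55% and 2.52% in the mock libraries. At that length the treatments overlapped, and the shares of the 92 genes were near those of all genes.

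In both mock libraries CLAMP was called at 40 ribosomal protein genes (43.5%), against 11.6% of all genes. They comprised 23 RpL and 17 RpS genes. None was kept in both dsCP190 libraries, against 17.2% of all such genes. Of the 40, 21 (52.5%) were called in dsCP190 replicate 1 only, against 38.8% of all genes, and none in replicate 2 only, against 0.186%. The other 19 (47.5%) were lost, against 43.8% of all genes. No gene gained a CLAMP call, against 0.0646% of all genes. The count of lost genes would be 40 without dsCP190 replicate 1 and 30 without mock replicate 1, and 21 genes would be kept without dsCP190 replicate 2, so the CLAMP counts depend on which libraries enter.

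CLAMP peaks at ribosomal protein genes were weak ones of their lists, unlike those of CP190. Their median rank was 33.1 against 48.7 for all genes, and their median mock folds were 3.00 and 3.02 against 3.62 and 3.85. Of the 40 genes, 12 lay in the weakest of 5 classes and 2 in the strongest, where 74.0% of all genes were called in dsCP190 replicate 2. The ribosomal protein genes called in dsCP190 replicate 1 had a median rank of 54.0 and the lost ones 23.4.

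The strongest CLAMP peaks had a call in dsCP190 replicate 1. RpS19a had a CLAMP fold of 3.54 in that library and no call in dsCP190 replicate 2, against 10.7 and 10.2 in mock cells. RpS28a had 6.91 in dsCP190 replicate 1, against 8.84 and 10.8 in mock cells. The mock summits lay on the other side of the gene, but in peaks that overlapped the dsCP190 one. The peak ran from 30021737 to 30023018 in dsCP190 replicate 1 and from 30021627 to 30023042 in mock replicate 1. RpL7 had 4.95 in dsCP190 replicate 1, against 7.43 and 6.66 in mock cells. In all 3 the dsCP190 value was below both mock values. At RpL14 it was not, with 6.95 in dsCP190 replicate 1 against 6.86 and 9.52 in mock cells. Over the 21 genes the value of dsCP190 replicate 1 was below both mock values at 9 (42.9%), against 56.8% of all genes of this class.

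The lost CLAMP calls were led by RpS28-like, with no call in dsCP190 cells and mock folds of 3.98 and 4.75. RpL36 (3.73 and 3.75 in mock cells), RpS10b (3.15 and 3.85) and RpS27 (3.14 and 3.23) came next, each with no call in dsCP190 cells. RpL32 (2.98 and 2.89) and RpS30 (2.25 and 3.87, at summits in different parts of the gene), which in many animals is made as a fusion with a ubiquitin-like protein, completed the 6 strongest. RpL36, RpS27 and RpS30 lost CLAMP while they kept CP190, and RpS12 did the opposite in part, with CLAMP called in dsCP190 replicate 1. The local background in the CLAMP dsCP190 libraries was 0.354 to 0.446 of that of the mock libraries, and its part in the lost calls was not tested.

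Both proteins were called in all 4 mock libraries at 38 ribosomal protein genes (41.3%), against 8.67% of all genes. Neither was called in any library at 8, and the share of such genes over all genes is not given here. The count of 38 depends on the threshold: it was 2 with lists of equal length and 15 where every peak had to reach a −log10 q of 10. The shares of all genes with both proteins were not counted at these settings. The 38 made up nearly all of the 40 genes with CLAMP. RpS28-like and RpL35 were the 2 others, and each had CP190 in mock replicate 2 only. The genes with the highest mean ranks for both proteins were RpS28a, RpS19a, RpS21, RpL7, RpL23A and RpL14. At RpS21 the CLAMP folds were 5.89 in dsCP190 replicate 1, none in replicate 2, and 6.57 and 7.07 in mock cells. At RpL14 the CP190 folds were 2.32 and 4.1 in dsCP190 cells and 10.3 and 11.5 in mock cells. RpL7 had CP190 folds of 3.82 and 6.53 in dsCP190 cells and 27.3 and 19.8 in mock cells. All 6 genes kept CP190 in both dsCP190 libraries, and CLAMP in replicate 1 only.

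The kept CP190 calls were counted by whether CLAMP was there in mock cells. With CLAMP in both mock libraries, 28 of 38 genes kept CP190 (73.7%) and 3 lost it (7.89%), and all genes of this kind kept it in 43.8% and lost it in 31.3%. With CLAMP in neither mock library, 8 of 24 kept CP190 (33.3%) and 10 lost it (41.7%), and all genes of this kind kept it in 19.0% and lost it in 60.3%. With CLAMP in 1 mock library, 8 of 14 kept CP190 (57.1%) and 3 lost it (21.4%), and all genes of this kind kept it in 36.3% and lost it in 31.5%. The kept share was highest with CLAMP in both mock libraries, but the difference was not tested and the strength of the CP190 peaks was not held equal.

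Over the genes called for each protein, which were not the same sets, the share of summits inside the gene body differed. CP190 summits lay mostly outside the gene body, with 17.1% and 14.8% inside in mock replicates 1 and 2, against 18.6% and 17.4% over all genes. CLAMP summits lay inside at 53.3% and 53.8% of the called ribosomal protein genes, against 40.7% and 40.1% over all genes. They were also close to the gene end, at a median of 83 and 68 bp against 165 and 165 bp over all genes, and within 100 bp at 64.4% and 65.4% of genes, against 34.7% and 36.7%. For CP190 the median distances of 96 and 95 bp were near those of all genes, 101 and 100 bp. These shares have no test, and short genes have less room for a summit far inside.

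**Figure D4:**
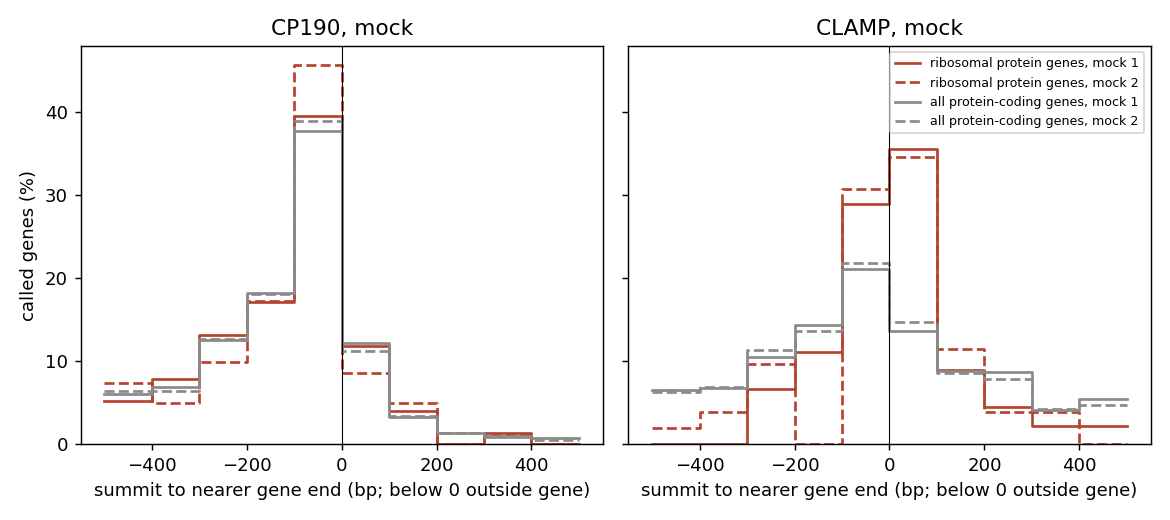
Percent of called genes by distance from the strongest summit to the nearer gene end, in steps of 100 bp, for CP190 (left) and CLAMP (right) in the mock libraries, with values below 0 outside the gene and above 0 inside it. Red lines are ribosomal protein genes and grey lines all protein-coding genes. The CLAMP summits of ribosomal protein genes crowd around the gene end, where 64.4% and 65.4% lay within 100 bp.

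Summits held their place between libraries at the kept genes. The median gap between mock replicates was 18 bp over the 44 genes. Between dsCP190 and mock replicates of the same number it was 29.5 bp for replicate 1 and 18 bp for replicate 2. Over 1708 kept genes these medians were 14, 31 and 21 bp, so the ribosomal protein genes were like kept genes at large. CLAMP and CP190 summits were farther apart, with medians of 121.5 bp in mock replicate 1 and 76.5 bp in mock replicate 2 over the 38 genes with both proteins, against 142 and 131 bp over 1207 genes. They lay at most 100 bp apart at 17 of the 38 genes (44.7%) in mock replicate 1 and 24 (63.2%) in replicate 2. Over the 1207 genes these shares were 42.7% and 43.3%. The CLAMP summits of the mock replicates lay 45 bp apart at the median over the same 38 genes. At RpL23A the CP190 mock summits lay 133 and 101 bp outside the gene and the CLAMP mock summits 85 and 97 bp outside it. At RpS19a the CP190 mock summits lay 430 and 442 bp outside the gene, whereas the CLAMP mock summits lay 221 and 218 bp inside it.

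Many of these peaks also stood at a neighbouring gene. In mock replicates 1 and 2, 52 of 76 (68.4%) and 53 of 81 (65.4%) of the CP190 summits also lay within 500 bp of an end of another gene, against 75.4% and 75.8% over all genes. The summit at RpS28a was shared with Axn, a negative regulator of Wingless signalling, that at RpL14 with Nelf-E, a subunit of the pausing factor NELF, and that at RpL7 with Ripalpha. At RpL7A, RpS23, RpS12 and RpS7 no other gene end lay within that distance. RpL27A had its strongest summits at different places in the mock replicates, 1 of fold 5.24 beside Gs1l and 1 of fold 24.6 beside mRpL27. In mock replicate 2 a weaker summit, of fold 4.58, also lay 320 bp from a gene end. The mock replicate 1 summit lay at 339 bp. With each summit given only to its nearest gene end, 52 ribosomal protein genes had CP190 in both mock libraries, of which 30 kept it and 10 lost it. The kept and lost shares of all genes were not counted in this way.

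Genes of near-alike symbol, grouped here as families of copies, had unlike CP190 calls in 9 of 12 families. The grouping used symbols alone, so not every -like gene need be a copy of the same ribosomal protein gene. How often other sets of genes differ in this way was not counted. Of the 12 families of near-alike symbols, with 25 genes, RpLP0 and RpLP0-like both kept CP190. RpLP0, which encodes the base of the stalk that recruits elongation factors, had folds of 3.15 and 3.76 in dsCP190 cells, against 10.1 and 10.5 in mock cells. RpLP0-like, related to an assembly factor of yeast, had 2.96 and 3.97 in dsCP190 cells, against 12.2 and 13.2 in mock cells. RpS19a and RpS19b also both kept CP190. RpS19a had 5.05 and 9.85 in dsCP190 cells, against 22.6 and 21.7 in mock cells, and RpS19b had 2.19 and 3.47 in dsCP190 cells, against 11.0 and 8.55 in mock cells. In all 4 genes the dsCP190 values lay below the mock values. RpL10Aa and RpL10Ab had no call in any library. A mock CP190 peak did reach over RpL10Ab, with its nearest summits just outside the window, so the likeness of this pair rested on the window edge.

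In the other families the copies differed in their calls. RpL22, RpS5a and RpS10b had CP190 in both mock libraries, while RpL22-like, RpS5b and RpS10a had none. RpL22 had folds of 6.48 and 15.5 in dsCP190 cells and 21.3 and 19.8 in mock cells, and RpS5a had 4.44 and 6.50 in dsCP190 cells and 17.6 and 17.4 in mock cells. These copies lie on different chromosomes, so each has its own neighbourhood. RpL7, RpL34b and RpS15Aa kept CP190, while RpL7-like, RpL34a and RpS15Ab lost it. RpL34b had 3.36 and 4.74 in dsCP190 cells and 21.0 and 18.0 in mock cells. RpS15Aa had 6.05 and 17.7 in dsCP190 cells and 30.0 and 26.1 in mock cells, against no call in dsCP190 cells and 4.37 and 3.15 in mock cells at RpS15Ab. In each of these 3 pairs the lost copy had the lower mock folds.

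RpL24 had a fold of 3.83 in dsCP190 replicate 2 and 9.22 and 8.14 in mock cells, whereas RpL24-like was lost although its mock folds of 11.5 and 12.9 were higher. RpS28a kept CP190, while RpS28-like was called in mock replicate 2 only (3.62) and RpS28b in dsCP190 replicate 2 (1.94) and mock replicate 2 (8.01). RpS14a and RpS14b lie side by side on X, and RpS14b had mock folds of 12.6 and 11.8 at a summit that also lay within 500 bp of RpS14a. In dsCP190 replicate 2 the peak nearest to RpS14b, at that end of the gene, had a fold of 3.19, and a stronger one of 3.99 lay at its other end, beside Ubr3. Reads from near-identical copies can be placed at the wrong copy or dropped, which makes the values of the copied genes uncertain, and how the authors treated such reads is not given in the sources used here.

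On the X chromosome 11 of 14 ribosomal protein genes had CP190 in both mock libraries, of which 9 kept it (81.8%) and none lost it. On the autosomes 65 of 78 had it, of which 35 kept it (53.8%) and 16 lost it. Over all genes, 51.3% on X and 46.7% on the autosomes had CP190 in both mock libraries. Of these, 30.6% on X and 24.9% on the autosomes kept it, and 44.9% on X and 52.4% on the autosomes lost it. CLAMP was called in both mock libraries at 11 of the 14 X-linked genes (78.6%) and at 29 of the 78 autosomal ones (37.2%), against 17.5% and 10.5% over all genes. The X-linked genes are few, and no test was made.

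Other genes of the translation apparatus also had CP190 at most members in mock cells, with kept shares of 18.5% to 34.4% in the 4 larger groups. Of 92 cytosolic ribosomal protein genes 82.6% had CP190 in both mock libraries and 57.9% of these kept it. Over all genes 47.4% had it, of which 25.9% kept it and 51.1% lost it. The kept shares of the 4 other groups lay on both sides of that 25.9%. Of 73 mitochondrial ribosomal protein genes, whose products build the separate ribosome of the organelle, 65 (89.0%) had CP190, of which 12 (18.5%) kept it and 41 lost it. Of 44 translation initiation factor genes, 32 (72.7%) had CP190, of which 11 (34.4%) kept it and 7 lost it. All 9 elongation and release factor genes had it, 2 kept it and 5 lost it. Of 20 ribosome biogenesis genes 16 had it, 4 kept it and 7 lost it. sta and Rack1, the small-subunit genes whose symbols do not follow the rule, both kept it. The differences between these groups were not tested, and their mock strengths were not held equal.

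Among these genes eEF2, the factor that moves the ribosome along the message, had CP190 folds of 2.52 and 6.77 in dsCP190 cells and 22.0 and 17.9 in mock cells. Fib, the methyltransferase fibrillarin that modifies ribosomal RNA, had 6.00 and 14.5 in dsCP190 cells and 28.3 and 27.7 in mock cells. At both, the dsCP190 values lay below the mock values, as at most kept ribosomal protein genes. eEF1alpha1, which brings transfer RNA to the ribosome, had no call in dsCP190 cells and 6.84 and 7.61 in mock cells. These 3 genes were chosen after their values were seen. CLAMP in both mock libraries was called at 43.5% of cytosolic ribosomal protein genes, at 11 mitochondrial ones (15.1%), at 10 initiation factor genes (22.7%), at 3 of the 9 elongation and release factor genes and at 5 of the 20 biogenesis genes. Over all genes this share was 11.6%.

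**Figure D5:**
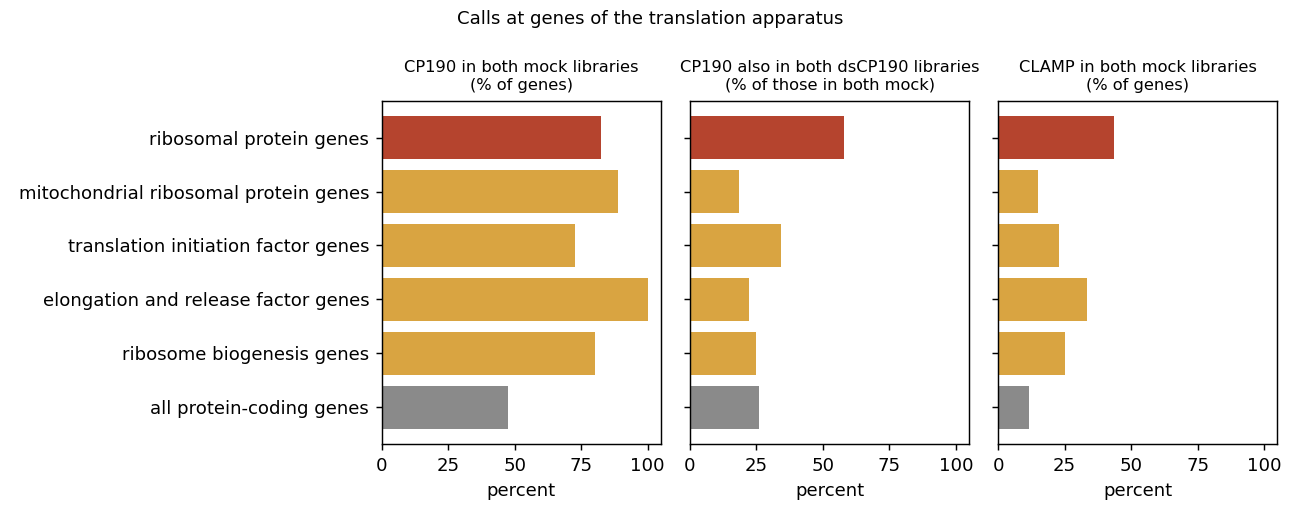
Percent of genes with CP190 in both mock libraries (left), percent of those that also had CP190 in both dsCP190 libraries (middle) and percent with CLAMP in both mock libraries (right), for the cytosolic ribosomal protein genes (red bar), other groups of translation genes (yellow bars) and all protein-coding genes (grey bar). The mock CP190 shares of cytosolic and mitochondrial ribosomal protein genes were 82.6% and 89.0%, while 57.9% and 18.5% kept it. Over all genes 47.4% had mock CP190 and 25.9% of these kept it.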

How the data were processed

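Each immunoprecipitation had 1 deposited peak list, called per sample. The submitters' processing notes name build dm6 and, with no role given, MACS2 2.1.1.20160309, deepTools 3.0.2, Picard 2.18.9, cutadapt 1.16 and Bowtie2 2.3.4.1. Which control library and which calling parameters were used is not given in the sources used here. The authors deposited for every peak a fold enrichment ratio, a −log10 p, a −log10 q, a score equal to the −log10 q times 10 with its decimals dropped, and the summit offset in bp. The lowest −log10 q of a list was 1.30 to 2.01.

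Peaks on 6 arms were joined to the gene ends of a RefSeq table of the same build, with 1-based coordinates, by the nearness of the summit (500 bp). The strongest peak gave a gene's value, and percentile ranks by fold were taken within each list. Kept genes were called in both mock and both dsCP190 libraries, and lost genes in both mock and neither dsCP190 library. Pile-ups were recovered from fold and −log10 p as whole numbers within 0.002 for 89.0% to 100% of peaks, and their backgrounds gave relative depth. Library counts were compared by an exact permutation test. The join and the recovery were tested on simulated data. Python 3.11.15, numpy 2.4.6, pandas 2.3.3, scipy 1.17.1 and matplotlib 3.10.9 were used.

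Named genes were, per protein, the 6 kept and 6 lost genes of highest mean mock rank and 4 called in 1 dsCP190 library, the 6 highest for both proteins, genes without a mock CP190 call, genes nearest the window edge, and families of copies. A gene that this rule selects is left out of the text and of the plot of single genes, but not out of counts. The genes and lists were chosen with earlier results of these data known. Other windows, thresholds, list lengths and gene assignments, and each library left out, were tried. Same-numbered libraries did not deviate together, so replicate numbers were not used as pairs.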

Additional observations from a re-analysis of the deposited data

How the results depend on the processing

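Of 102 values recomputed under other settings, 85 kept their direction or stayed within 1.5 times the reported value, and 24 of 25 differences between dsCP190 and mock counts were below 0. The exception was the CP190 difference of 6.5 genes with lists of equal length, where the CP190 mock and lost counts were 40 and 0, the CLAMP mock and lost counts 2 and 1, and both proteins stood at 2 genes. The tallies include values that could not change, namely mean differences over replicate blocks and mock counts with a dsCP190 library left out. Differences were judged by direction only, so a CLAMP difference of -1.5 genes with lists of equal length counted as kept. With a −log10 q of at least 10, 26 genes kept CP190, CLAMP was in both mock libraries at 17 and lost at 8, and both proteins stood at 15. With a 1000 bp window 2 genes kept CLAMP, and with any part of the peak within 500 bp 1 did. With the nearest gene end only, 10 genes lost CP190. The cause of these changes was not tested, and kept and lost shares of all genes were not counted at these settings. Leaving out 1 library at a time gave lost counts of 16 to 32 for CP190 and 19 to 40 for CLAMP, and kept CLAMP counts of 0 to 21, with definitions that ask for fewer libraries. With replicate number as a block, the mean paired difference was -24.5 genes for CP190 (pairs -31 and -18) and -37.5 for CLAMP (pairs -23 and -52), each with an exact p of 0.5, the smallest possible. Same-numbered libraries had correlations of -0.119 for CP190 over 1708 genes and -0.0112 for CLAMP over 277 genes, and crossed CP190 pairs, added after seeing the data, gave -36 and -13. Gene starts alone and promoter letters were not run, since no strand or sequence was used here. The recovered local background at shared summits was lower in dsCP190 than in mock libraries, which limits what a missing call can show.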
